A study of Sorghum bicolor with 12 samples.

Results

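Late embryogenesis abundant (LEA) genes were followed in sorghum leaves under drought and under normal water, in the cultivar Sanchisan (SCS) and the cultivar Jinliang 5 (JL). The set holds 7 of the 33897 genes in the count table, chosen because their counts in SCS drought stood far above those in SCS control. The members are LOC110430243, LOC8072323 and LOC110434031, annotated as group 3 or group 3-like LEA proteins, LOC8059830 (ABA-inducible protein PHV A1), LOC8055903 (LEA protein 1), LOC8073244 (an 11 kDa LEA protein) and LOC8065192 (low-temperature-induced 65 kDa protein). Because the contrast of SCS drought with SCS control chose them, it is described here without a test, as are the other comparisons that use SCS drought. The comparison of JL drought with JL control did not define the choice and is tested. The members were chosen with earlier results of these data known, however. Whether their JL values weighed in the choice cannot be told, so the JL p-values of members are descriptive. Of the 33897 genes, 20873 passed the filter on low counts, and all 7 members did so through the SCS drought libraries, where they are high.

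The 4 groups were SCS drought, SCS control, JL drought and JL control, with 3 libraries each. The labels give the tissue as leaves, the cultivar and the water treatment. They do not give the length or severity of the drought, the age of the plants, or whether each library is a plant of its own, so p-values measure only how far these samples spread, and that spread may be technical. Values are given as counts of reads and as CPM, the counts scaled to library size with TMM factors. In bulk leaf RNA, fewer cells of a type and less RNA per cell cannot be told apart.

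LEA proteins are small, mostly hydrophilic and largely disordered proteins that accumulate in maturing seeds and, in many species, in vegetative tissue that loses water. They are thought to stabilise membranes and other proteins during drying. Many LEA genes carry abscisic acid (ABA) response elements and are transcribed when ABA rises, through bZIP factors that are released when ABA receptors restrain clade A protein phosphatases 2C. Group 3 LEA proteins carry repeats of an 11-residue motif that can fold into a helix on drying. HVA1 of barley, the name behind the PHV A1 annotation, is a group 3 LEA protein induced by ABA. The low-temperature-induced 65 kDa protein of Arabidopsis is also known as RD29B.

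Library totals ranged from 15.04 to 18.4 M counts. Markers of a C4 leaf were abundant: phosphoenolpyruvate carboxylase 3 (LOC8058886) averaged 3716 ± 2898 CPM in SCS drought, 22253 ± 9215 CPM in SCS control, 50496 ± 10129 CPM in JL drought and 52576 ± 13595 CPM in JL control (SD, n = 3). The summed level of the 27 C4 leaf markers was 7869 to 27816 CPM in the SCS drought libraries, 40703 to 106762 CPM in SCS control, 159834 to 253059 CPM in JL drought and 125539 to 240753 CPM in JL control. Of the 26 tested, 1 rose and 3 fell in SCS drought, where 4.09% of all tested genes rose and 5.41% fell. DESeq2 called 11 of the 26 in SCS. Their edgeR median log2 fold change in SCS was -1.59, against -0.07 over all tested genes. In JL drought edgeR and DESeq2 called 0 of the 26. An edgeR unadjusted p below 0.05 was held by 1, beside 3.71% of all tested genes. The 23 kafirin, zein and glutelin genes, which define the cereal endosperm, reached at most 3 counts in a library, and 20 of them had 0 counts in all 12. The 10 genes of oleosins, the oil body proteins of seeds, summed to 48.3 to 223 CPM in SCS drought, 1.56 to 3.21 CPM in SCS control, 0.879 to 28.8 CPM in JL drought and 0.675 to 4.50 CPM in JL control. Of these 10 genes 4 had 0 counts in all libraries, and 1, oleosin 1 (LOC8059544), held most of the sum at 208, 97.0 and 46.1 CPM in SCS drought (edgeR adjusted p = 0.0171 in SCS, lost without any 1 of the SCS control libraries or SCS drought library 1). The whole list of oil body and storage proteins held 61 genes, of which 17 were tested. In SCS drought 3 rose and 3 fell (edgeR adjusted p below 0.05), beside 4.09% and 5.41% of all tested genes. DESeq2 called 8 higher and 3 lower. The summed level of the list was 409 to 1367 CPM in SCS drought against 831 to 1305 CPM in SCS control. In JL drought 0 of the 17 were called by edgeR, and DESeq2 called 1. An edgeR unadjusted p below 0.05 was held by 3, beside 3.71% of all tested genes. The list summed to 766 to 1178 CPM in JL drought against 998 to 1314 CPM in JL control. The part of any of these lists in the LEA values was not tested.

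Sequences were not used here, and the members are identified by their positions in the deposited gene table. The coordinates of all 7 equal those of RefSeq assembly Sorghum_bicolor_NCBIv3. The 7 genes lie on 5 chromosomes. LOC110430243 spans positions 56036770 to 56038025 of chromosome 9 on the plus strand, with a gene length of 1052 bp in the table. LOC8072323 spans 56006208 to 56008063 of chromosome 6 on the plus strand, at 1734 bp. LOC110434031 spans 60817042 to 60818368 of chromosome 3 on the minus strand, at 1060 bp. No Pfam family is assigned to these 3 genes in the table. LOC8059830 spans 76161204 to 76162692 of chromosome 1 on the plus strand, at 1406 bp. LOC8055903 spans 67521488 to 67523058 of chromosome 1 on the plus strand, at 1491 bp, and carries the LEA domain PF02987. LOC8073244 spans 12259934 to 12261379 of chromosome 7 on the minus strand, at 1193 bp, and carries the LEA group 1 domain PF03760. LOC8065192 spans 18170280 to 18173135 of chromosome 1 on the minus strand, at 2364 bp. The handling of reads shared by close copies is not stated in the labels or file headers, so values of single group 3 genes are uncertain in that respect.

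Every member was high in all 3 SCS drought libraries and near 0 everywhere else. The 21 member values in SCS drought ran from 15.8 to 3490 CPM with none at 0. In SCS control 15 of 21 values were 0 and the highest was 4.50 CPM. In JL drought 13 of 21 were 0 and the highest was 1.17 CPM, and in JL control 11 of 21 were 0 and the highest was 2.02 CPM. No SCS drought library overlapped any other group for any member. Among all tested genes, every SCS drought library lay above every SCS control library for 14.6%, and above every JL drought library for 15.6%; nothing is read from the members' share, since it chose them.

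Together the 7 genes took 148716, 99029 and 44515 counts in SCS drought libraries 1, 2 and 3, which is 0.955%, 0.631% and 0.277% of all counts of those libraries. They took 118, 77 and 22 counts in SCS control, 25, 14 and 1 in JL drought, and 18, 15 and 44 in JL control. The sums of JL drought overlapped those of JL control and of SCS control, and those of SCS drought overlapped none.

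**Figure D1:**
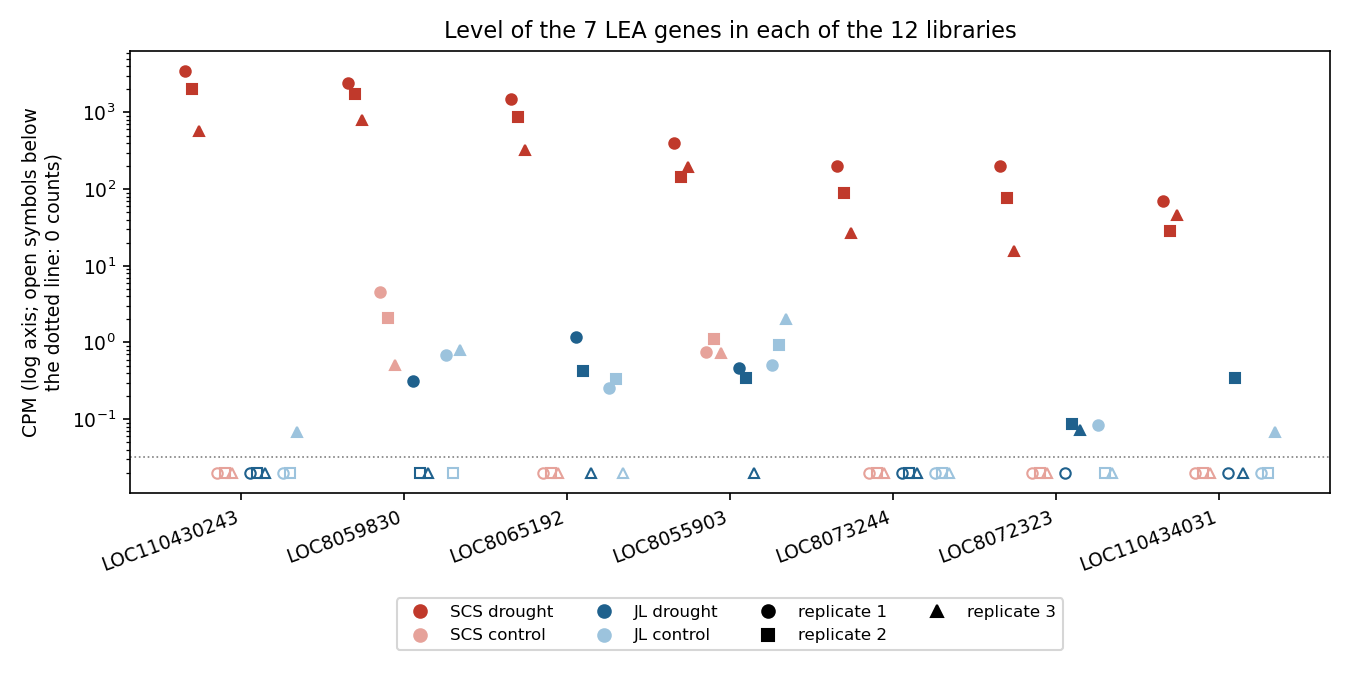
Level of each of the 7 LEA genes in the 12 libraries, in CPM on a log axis, with groups left to right as SCS drought, SCS control, JL drought and JL control, and 1 symbol per library. Filled SCS drought symbols lie at 15.8 CPM or higher, all other values at 4.50 CPM or lower, and open symbols under the dotted line mark 0 counts.

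Among the group 3 LEA genes, LOC110430243 had the highest level, also per gene length. It had 62343, 40362 and 12859 counts in SCS drought, 0 in each SCS control library, 0 in each JL drought library, and 0, 0 and 1 in JL control. Its SCS drought level was 3490, 2045 and 568 CPM, a mean of 2034 ± 1461 CPM (SD, n = 3). The gene went unseen in 8 of the 9 other libraries, in each of which a count of 0 allows up to 3 reads. LOC8072323 had 3576, 1529 and 358 counts in SCS drought, 0 in each SCS control library, 0, 1 and 1 in JL drought, and 1, 0 and 0 in JL control. It averaged 97.8 ± 93.8 CPM in SCS drought (SD, n = 3), with library 1 far above library 3. LOC110434031 had 1258, 560 and 1053 counts in SCS drought, 0 in each SCS control library, 0, 4 and 0 in JL drought, and 0, 0 and 1 in JL control. It averaged 48.4 ± 21.1 CPM in SCS drought (SD, n = 3) and had the lowest level of the 7, also per gene length.

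LOC8059830, the PHV A1 gene, was the one with the clearest signal outside SCS drought. It had 43676, 34652 and 17881 counts in SCS drought, 101, 50 and 9 in SCS control, 4, 0 and 0 in JL drought, and 8, 0 and 12 in JL control. Its level was 2445, 1756 and 789 CPM in SCS drought and 4.50, 2.08 and 0.512 CPM in SCS control. The means were 1663 ± 832 CPM in SCS drought and 2.37 ± 2.01 CPM in SCS control (SD, n = 3 each). On pooled counts SCS drought stood 639 times above SCS control (exact 95% binomial interval 547 to 751, counting error only). Without SCS control library 1, which holds most of the control reads, the ratio was 1125. This gene also had the higher level in SCS control than in JL control, 4.82 times on pooled counts (3.02 to 8.11), although the libraries of both groups overlapped. The ratio was 2.74 without SCS control library 1 and 7.42 without JL control library 3.

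LOC8055903, LEA protein 1, was detected at a low level in all 6 control libraries. It had 7122, 2810 and 4471 counts in SCS drought, 17, 27 and 13 in SCS control, 6, 4 and 0 in JL drought, and 6, 11 and 30 in JL control. Its level was 399, 142 and 197 CPM in SCS drought and 0.758, 1.13 and 0.739 CPM in SCS control. The means were 246 ± 135 CPM in SCS drought and 0.874 ± 0.218 CPM in SCS control (SD, n = 3 each), a ratio of 268 on pooled counts (exact 95% binomial interval 207 to 355). The control level varied little between the SCS libraries.

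LOC8073244, the group 1 gene, was the one member with no read outside SCS drought. It had 3600, 1769 and 602 counts in SCS drought and 0 counts in each of the 9 other libraries. Its level was 202, 89.6 and 26.6 CPM in SCS drought, a mean of 106 ± 88.6 CPM (SD, n = 3). The bound that 0 counts allow puts SCS drought at least 2114-fold above SCS control, with the floor of 3 counts set over the group. That bound was 1193 without SCS drought library 1, and 1373 and 1322 without SCS control libraries 1 and 2, where the floor covers fewer reads.

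LOC8065192, the 65 kDa protein gene, was absent from SCS control but not from JL. It had 27141, 17347 and 7291 counts in SCS drought, 0 in each SCS control library, 15, 5 and 0 in JL drought, and 3, 4 and 0 in JL control. Its level was 1519, 879 and 322 CPM in SCS drought, a mean of 907 ± 599 CPM (SD, n = 3). The JL reads amounted to 1.17, 0.428 and 0 CPM in JL drought and 0.255, 0.334 and 0 CPM in JL control. In JL control 7 reads were counted over 3 libraries, so SCS control, with 0, and JL control differ by few reads.

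The members did not vary alike across the SCS drought libraries. Library 1 was the highest for all 7. LOC110430243, LOC8072323, LOC8073244, LOC8059830 and LOC8065192 were lowest in library 3, whereas LOC110434031 and LOC8055903 were lowest in library 2. The highest library exceeded the lowest 2.48 times for LOC110434031, 2.80 times for LOC8055903, 3.10 times for LOC8059830, 4.72 times for LOC8065192, 6.15 times for LOC110430243, 7.58 times for LOC8073244 and 12.7 times for LOC8072323. The spread within SCS drought is thus large for the level of any member, and small beside the gap to the other groups.

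**Figure D2:**
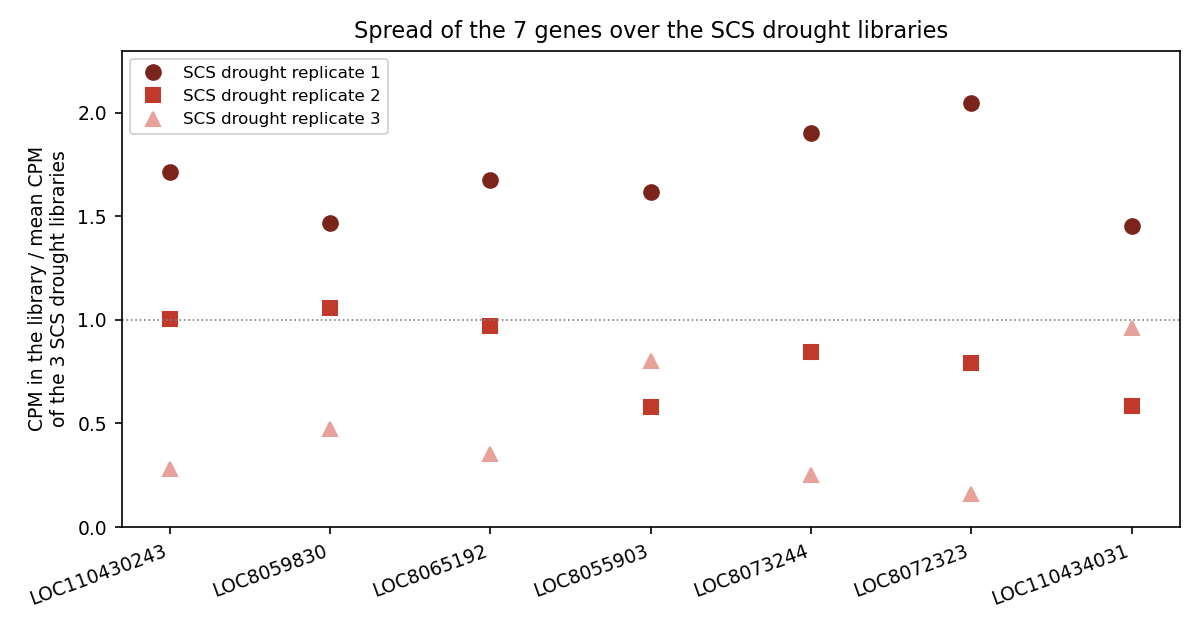
CPM of each gene in SCS drought libraries 1, 2 and 3, divided by the gene's mean over the 3 libraries, with the dotted line at that mean. Library 1 lies highest for all 7 genes, and library 3 lies lowest for all but LOC8055903 and LOC110434031.

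Per kilobase of gene length, which allows levels of different genes to be compared, LOC110430243 led with 1934 ± 1389 CPM per kb in SCS drought and LOC8059830 followed with 1183 ± 591 (SD, n = 3). LOC8065192 had 384 ± 253 CPM per kb, LOC8055903 had 165 ± 90.5, LOC8073244 had 88.8 ± 74.3, LOC8072323 had 56.4 ± 54.1 and LOC110434031 had 45.7 ± 19.9. The library values of neighbours in this order overlapped throughout. Libraries 1 and 2 gave this order, and in library 3 LOC8059830 (561 CPM per kb) stood above LOC110430243 (540 CPM per kb).

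In JL the drought leaves held few reads of these genes, at most 25 in a library for all 7 together. With 0 to 47 counts per group for a member, the test had little to work on, and a result of 0 calls says little. Drought against control in JL called 0 of the 7 members with edgeR's quasi-likelihood test, and 0% of all 20873 tested genes. At an unadjusted p below 0.05 it held 1 member, against 3.71% of all genes, and DESeq2 called 0 members and 0.217% of the genes to which it gave an adjusted p. That 1 member, LOC8055903, was lower in JL drought, at 0.469, 0.342 and 0 CPM, against 0.510, 0.918 and 2.02 CPM in JL control. The groups did not overlap, as for 2.56% of all tested genes with JL control above JL drought. Its log2 fold change was -2.10 (SE 0.81), with an unadjusted p of 0.0264 and a Benjamini-Hochberg adjusted p of 1 (edgeR), over 10 counts in JL drought and 47 in JL control.

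LOC8059830 had a log2 fold change of -2.19 (SE 1.41, edgeR adjusted p = 1), over 4 counts in JL drought and 20 in JL control, all 4 from JL drought library 1. LOC8065192 had 1.47 (edgeR unadjusted p = 0.290, adjusted p = 1), over 20 counts in JL drought and 7 in JL control, and 15 of the 20 came from JL drought library 1. LOC110434031 had 1.81 (SE 1.57, edgeR adjusted p = 1), from 4 reads of JL drought library 2 against 1 read in JL control, and the value was -2.18 without that library. Leaving out 1 library gave 0.12 (without JL drought library 1) to 2.11 (without JL control library 2) for LOC8065192, -6.13 (without JL drought library 1) to -1.60 (without JL drought library 3) for LOC8059830, and -2.80 (without JL drought library 1) to -1.40 (without JL control library 3) for LOC8055903. The other 3 members had 3 reads or fewer in each JL group and give no fold. No JL drought library came near the 44515 counts of the lowest SCS drought library, and a change of a few reads in JL was not detectable.

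Set against JL drought, the same genes in SCS drought were higher by ratios of 454 or more on pooled counts. LOC110430243 was at least 24383-fold and LOC8073244 at least 1260-fold higher in SCS drought, with JL drought at 0. The ratio was 15225 (exact 95% binomial interval 5946 to 55878) for LOC8059830, 1729 (478 to 14280) for LOC8072323, 1639 (1061 to 2683) for LOC8065192, 912 (496 to 1902) for LOC8055903 and 454 (177 to 1669) for LOC110434031. The intervals cover counting error only, and these ratios describe a difference for which the genes were picked.

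Leaving out 1 library moved several of these values by more than 1.5 times. Where the JL drought library left out held 0 reads of a gene, the value changed only because fewer reads were pooled. This was so for LOC110430243 and LOC8073244 in every JL drought library, and for LOC110434031 in JL drought libraries 1 and 3. It was also so for LOC8072323 in JL drought library 1 and for LOC8059830 in JL drought libraries 2 and 3. The same holds for LOC8055903 and LOC8065192 in JL drought library 3. Leaving out JL drought library 2 moved no value by more than 1.5 times. Without SCS drought library 1 the bound was 15962 for LOC110430243 and 711 for LOC8073244, and the ratio was 849 for LOC8072323. Without JL drought library 1 the bounds were 16203 for LOC110430243 and 837 for LOC8073244, and the ratios were 4356 for LOC8065192, 1515 for LOC8055903, 1149 for LOC8072323 and 302 for LOC110434031. Without JL drought library 3 the bounds were 15651 for LOC110430243 and 809 for LOC8073244, and the ratios were 9772 for LOC8059830, 1052 for LOC8065192, 585 for LOC8055903 and 292 for LOC110434031. The lowest of these values was 292.

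The members belong to a wider group of 37 genes whose product names mark them as LEA proteins, dehydrins or desiccation-related proteins, of which 23 were tested. Of the 23, 18 rose and 0 fell in SCS drought (edgeR adjusted p below 0.05), where 4.09% of all tested genes rose; the 7 members are among the 18 and were chosen on this contrast, so this count is not independent evidence. Of the 16 tested genes outside the members, 11 rose, with a median log2 fold change of 7.28 against -0.07 over all tested genes, and the median was the same with the genes at 0 in SCS control placed at their bound. Several of the 16 also passed the filter on low counts through SCS drought. LOC8071330, LOC8054663 and LOC8059858, for example, had at most 0.0834 CPM in SCS control. The filter thus favoured a rise, and this count and median are descriptive too. All 4 genes with the dehydrin domain PF00257 rose, as did all 3 tested genes with the seed maturation domain PF04927. Of the 23, 18 were called with all libraries, 11 without SCS control library 3 and 12 without SCS control library 1.

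Of the dehydrins, which are group 2 LEA proteins, DHN1 (LOC8077913) reached 8399, 7079 and 1221 CPM in SCS drought, against 0.490, 0.0417 and 0.455 CPM in SCS control (log2 fold change 14.04, SE 2.66, edgeR adjusted p = 0.0122; p of up to 0.0639 without SCS control library 1 or 3). Rab25 (LOC8059149) had 79.5, 81.7 and 13.6 CPM in SCS drought, against 0, 0.125 and 0.0568 CPM in SCS control (log2 fold change 9.71, SE 2.20, edgeR adjusted p = 0.0235). Its call was lost without any 1 of the SCS control libraries or SCS drought library 1. CS66 (LOC8071330) had 1060, 992 and 2.60 CPM in SCS drought and 0 in SCS control (edgeR adjusted p = 0.0448), and was called in 1 of 6 fits that left out a library, the one without SCS drought library 3. Both dehydrins and CS66 were lowest in SCS drought library 3, as were 5 of the 7 members.

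Among genes named for embryos or for late embryogenesis, the embryonic protein DC-8 (LOC8054663) had 276, 156 and 46.5 CPM in SCS drought, against 0, 0.0834 and 0.0568 CPM in SCS control (log2 fold change 11.52, SE 1.69, edgeR adjusted p = 0.00758). It was called whichever library was left out. D-34 (LOC8059858), which carries the seed maturation domain PF04927, had 114, 40.6 and 19.2 CPM in SCS drought, against 0, 0.0834 and 0 CPM in SCS control (log2 fold change 10.57, SE 1.72, edgeR adjusted p = 0.0103, lost without SCS control library 3 at 0.0552). LOC8059039, named for Arabidopsis At3g53040, had 34.1, 71.3 and 10.2 CPM in SCS drought and 0 in SCS control, and did not pass the test (edgeR adjusted p = 0.0953).

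A smaller part of the family was expressed in every group and did not pass the test. HIRD11 (LOC8057216), a dehydrin, had 2342, 899 and 1564 CPM in SCS drought, against 539, 469 and 807 CPM in SCS control (log2 fold change 1.40, SE 0.41, edgeR adjusted p = 0.0576). Lea14-A (LOC8064749) had 307, 208 and 106 CPM in SCS drought, against 42.6, 80.8 and 63.2 CPM in SCS control (log2 fold change 1.73, SE 0.52, edgeR adjusted p = 0.0615). Lea5-D (LOC8060357) had 180, 7.19 and 140 CPM in SCS drought, against 49.9, 33.5 and 84.1 CPM in SCS control (log2 fold change 0.96, SE 1.28, edgeR adjusted p = 0.680). The lowest level of these 3 genes in SCS control was 33.5 CPM, whereas none of the 7 members exceeded 4.50 CPM in a control library. Other family genes expressed in every group did pass. COR410 (LOC8073921) and LOC8063910 had log2 fold changes of 4.94 and 4.81 (edgeR adjusted p = 0.0262 and 0.0492). Both calls were lost without any 1 of the SCS control libraries or SCS drought library 1, and that of LOC8063910 also without SCS drought library 2.

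**Figure D3:**
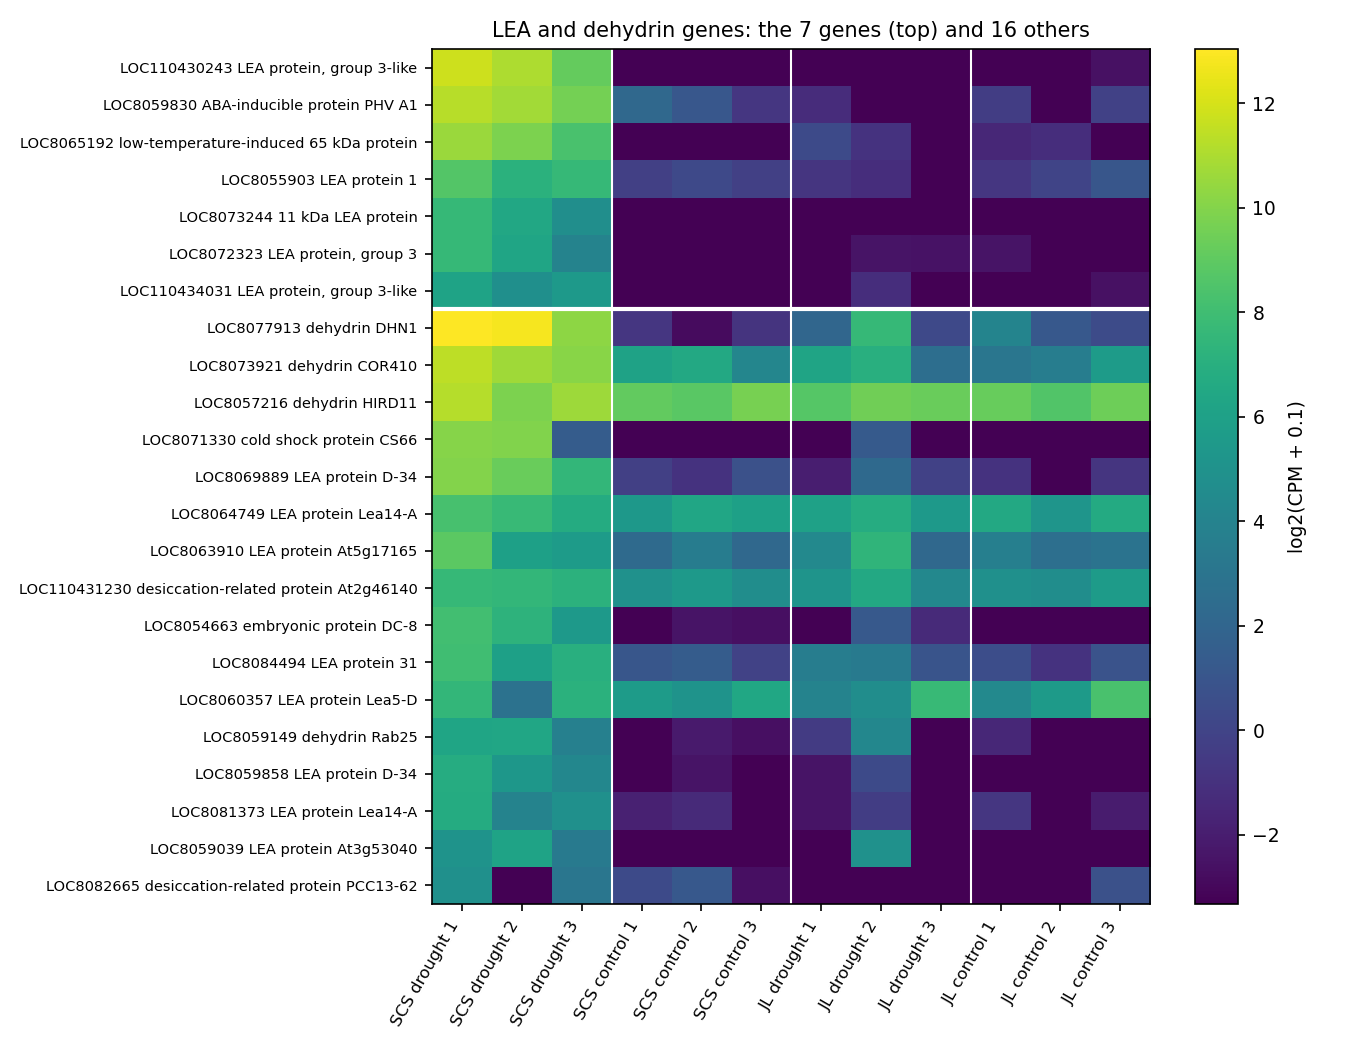
Level of the 23 tested LEA and dehydrin genes (rows, with the 7 members above the white line) in the 12 libraries (columns), as log2(CPM + 0.1). The 7 members are bright in the SCS drought columns alone, whereas several genes under the line, such as DHN1 at 203 CPM and COR410 at 129 CPM, are also bright in JL drought 2.

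In JL drought 0 of the 23 genes were called by edgeR, and DESeq2 called 1, LOC8059039. With the JL libraries alone, 8 genes of the list passed the filter on low counts, and edgeR called 0. The rest had few JL reads, so the result says little about them. An edgeR unadjusted p below 0.05 was held by 7, beside 3.71% of all tested genes. The median log2 fold change of the 16 genes outside the members was 2.68 against 0.04 over all tested genes, or 2.45 with the 5 genes at 0 in a JL group placed at their bound. JL drought library 2 carried most of this. DHN1 (LOC8077913) had 4.14, 203 and 1.10 CPM in JL drought and 16.4, 2.17 and 1.21 CPM in JL control. The dehydrin COR410 (LOC8073921) had 74.2, 129 and 5.93 CPM in JL drought and 8.66, 12.3 and 51.3 CPM in JL control. LOC8063910, a LEA protein named for Arabidopsis At5g17165, had 20.3, 166 and 4.47 CPM in JL drought and 13.3, 6.17 and 7.56 CPM in JL control. LOC8059039 had 0, 30.5 and 0 CPM in JL drought and 0 in JL control. In that same library no member exceeded 0.428 CPM, and the 7 together had 14 reads.

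The level in JL drought as a share of that in SCS drought shows the same contrast. Over the 7 members the mean of JL drought was 0 to 0.236% of the mean of SCS drought, with a median of 0.0541%. Over the 17 other genes of the family with at least 10 CPM in SCS drought it was 0 to 77.4%, with a median of 3.82%. The ranges overlap: CS66 (0.117%), the desiccation-related protein LOC8082665 and a second DC-8 gene, LOC8054662, both at 0 in JL drought, lie within the range of the members. The members were chosen for a strong SCS response, so no test of this difference is given. The change in SCS minus the change in JL was called by edgeR for 0 of the 16 other genes, beside 0.187% of all tested genes called higher. By edgeR 9 had an unadjusted p below 0.05, and DESeq2 called 4, DHN1, LOC8069889, LOC8084494 and LOC8081373. The shares of all tested genes are not given for these last counts, so nothing is read from them.

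Genes of ABA synthesis and signalling differed among themselves in JL drought. For 9-cis-epoxycarotenoid dioxygenase 1, the 3 most abundant phosphatases and bZIP23, JL drought libraries 1 and 2 lay above every JL control library. So they did, at 1.17 CPM or lower, for the member LOC8065192, but with 5 reads in JL drought library 2 against 4 in JL control library 2. The members LOC8055903 and LOC8059830 had fewer reads in JL drought than in JL control (10 against 47 and 4 against 20). LOC110434031 had more (4 against 1), and the remaining members gave no fold. Other ABA genes that rose in SCS drought, such as the kinase SAPK3, stayed under 5 CPM in every JL library. Among the 7 tested genes of ABA synthesis and breakdown, 2 rose and 0 fell in SCS drought, beside 4.09% and 5.41% of all tested genes. Their median log2 fold change was 0.84, against -0.07 over all tested genes. In JL drought edgeR called 0, and 1 had an unadjusted p below 0.05, beside 3.71% of all tested genes. The carotenoid-cleaving enzyme 9-cis-epoxycarotenoid dioxygenase 1 (LOC8062208), which makes the precursor of ABA, had 55.8, 98.3 and 52.7 CPM in SCS drought and 1.69, 1.46 and 2.22 CPM in SCS control (log2 fold change 5.27, SE 1.21, edgeR adjusted p = 0.0247). In JL it had 44.0, 217 and 3.07 CPM in drought and 3.99, 2.92 and 10.3 CPM in control (log2 fold change 3.93, SE 1.13, edgeR adjusted p = 1, called by DESeq2). Its level in JL drought library 2 exceeded that of every SCS drought library. Zeaxanthin epoxidase (LOC110436123) had a log2 fold change of -0.17 and ABA 8'-hydroxylase 3 (LOC8083090) of 0.84 in SCS, and neither passed the test (edgeR adjusted p = 0.783 and 0.644).

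Clade A protein phosphatases 2C restrain ABA signalling, and their own genes respond to ABA. In SCS drought 4.09% of all tested genes rose and 5.41% fell. Of the 11 tested phosphatases of this clade, 8 rose and 0 fell in SCS drought, with a median log2 fold change of 3.32 against -0.07 over all genes. The count was 1 without any 1 of the SCS control libraries and 2 without SCS drought library 1. Protein phosphatase 2C 30 (LOC8084948) had 699, 721 and 322 CPM in SCS drought and 3.25, 3.54 and 5.06 CPM in SCS control (log2 fold change 7.20, SE 1.43, edgeR adjusted p = 0.0144). In JL it had 52.1, 251 and 3.44 CPM in drought and 6.79, 3.84 and 27.7 CPM in control. Protein phosphatase 2C 50 (LOC8061070) and 2C 6 (LOC8078643) rose in SCS drought by log2 fold changes of 3.17 and 2.59 (edgeR adjusted p = 0.0197 and 0.0232), and reached 452 and 324 CPM in JL drought library 2, above every SCS drought library. Protein phosphatase 2C 51 (LOC8074621) had 134, 52.7 and 84.0 CPM in SCS drought and at most 3.68 CPM in a JL drought library, and 2C 8 (LOC8058260) had 67.3, 24.8 and 52.7 CPM in SCS drought and at most 3.42 CPM in a JL drought library (log2 fold changes in SCS of 4.68 and 5.88, edgeR adjusted p = 0.0254 and 0.0418). In JL 0 of the 11 were called by edgeR, and DESeq2 called 2. An edgeR unadjusted p below 0.05 was held by 6, beside 3.71% of all tested genes. Their median log2 fold change in JL was 1.76 for the 11, against 0.04 over all genes.

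In SCS drought 4.09% of all tested genes rose and 5.41% fell, so 1 call in a short list says little about that list. Of the 9 tested bZIP and B3 factors of the ABA response, 1 rose and 0 fell in SCS drought, bZIP transcription factor 23 (LOC8075201). It had 153, 112 and 82.7 CPM in SCS drought and 18.2, 23.5 and 22.3 CPM in SCS control (log2 fold change 2.44, SE 0.56, edgeR adjusted p = 0.0248), and 114, 213 and 28.6 CPM in JL drought against 38.2, 42.8 and 38.9 CPM in JL control. TRAB1 (LOC8063702), with -0.58, and a second bZIP23 gene (LOC8077354), with 1.77, did not pass the test in SCS (edgeR adjusted p = 0.277 and 0.0966). Of 5 tested ABA receptors 1 rose and 1 fell in SCS drought: the PYL8 gene LOC8065946 rose by 1.23 and the PYL8 gene LOC8078346 fell by 1.34 on the log2 scale (edgeR adjusted p = 0.0443 and 0.0340), and PYR1 (LOC8055151) changed by 0.05 without passing (edgeR adjusted p = 0.943). Of 11 tested SnRK2 kinases, the activators of the bZIP factors, 1 rose and 1 fell. SAPK3 (LOC110431683) rose to 103, 75.6 and 79.1 CPM in SCS drought, against 4.95, 6.34 and 3.01 CPM in SCS control (log2 fold change 4.17, SE 0.65, edgeR adjusted p = 0.00613), and averaged 2.62 ± 1.55 CPM in JL drought against 1.71 ± 1.16 CPM in JL control (SD, n = 3 each). SAPK5 (LOC8076517) was lower by a log2 fold change of -1.57 (edgeR adjusted p = 0.0179). SAPK4 (LOC110433368), with 2.12, and SAPK1 (LOC8077115), with 0.43, did not pass (edgeR adjusted p = 0.0546 and 0.442). The median log2 fold change in SCS was 0.47 for the factors, -0.64 for the receptors and 0.01 for the kinases, against -0.07 over all tested genes. In JL 0 genes of these 3 lists were called by edgeR, and DESeq2 called 0 in each. An edgeR unadjusted p below 0.05 was held by 2, 0 and 2 genes, beside 3.71% of all tested genes. The SCS calls of 9-cis-epoxycarotenoid dioxygenase 1, bZIP23 and both PYL8 genes were each lost without SCS control library 1 or 3 or without SCS drought library 1 or 2, those of the first 2 and LOC8065946 also without SCS control library 2. Those of protein phosphatases 2C 30, 50 and 6 were lost without any 1 of the SCS control libraries, those of 2C 50 and 2C 6 also without SCS drought library 1, and that of SAPK5 without SCS control library 3 or SCS drought library 2.

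**Figure D4:**
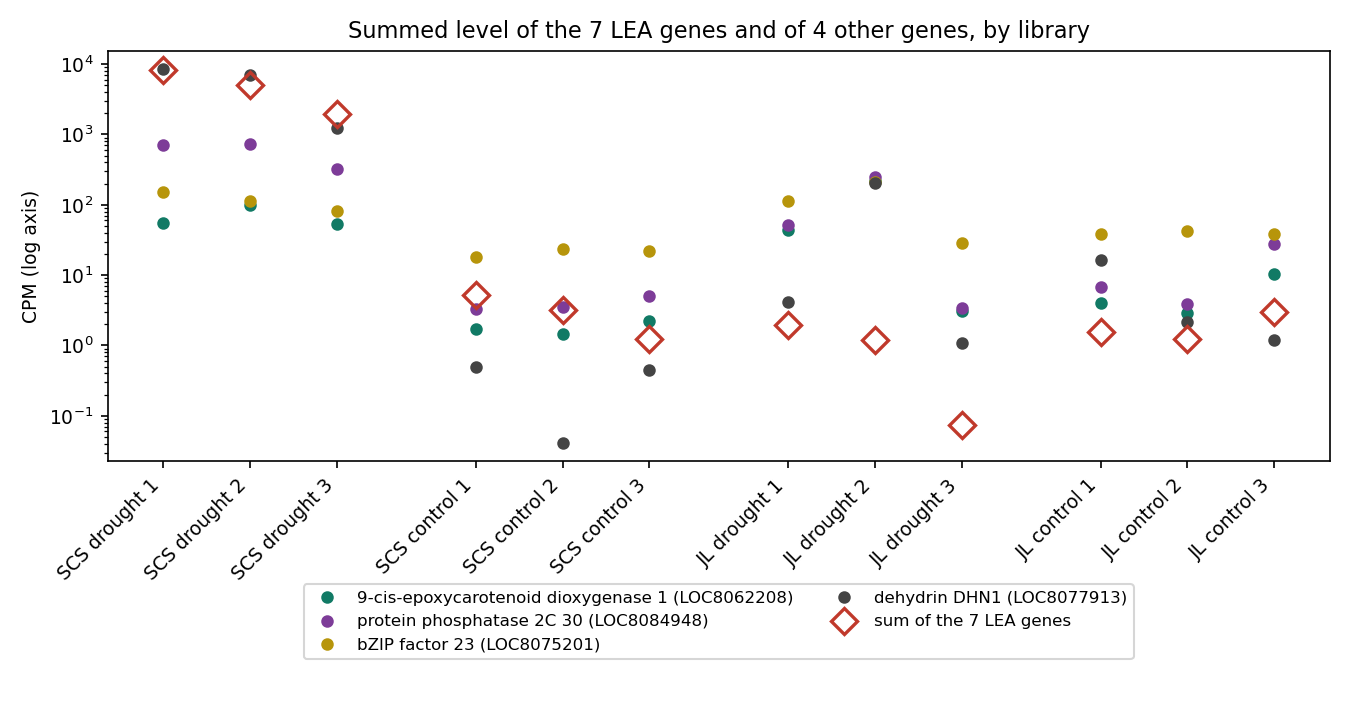
Summed CPM of the 7 LEA genes (open diamonds) and CPM of 4 other genes in each of the 12 libraries, on a log axis. In JL drought 2 the 4 other genes lie between 203 and 251 CPM, and the 7 LEA genes sum to 1.20 CPM, near the 1.25 to 5.26 CPM of the SCS control libraries.

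Genes with a pattern like that of the members were ranked by Pearson correlation over the 12 libraries with the mean centred log2 CPM of the 7, among 8311 genes outside the LEA list with at least 10 CPM in SCS drought and a named product. The profile is mostly SCS drought against the 9 other libraries, so r describes shape and carries no test. Outer envelope pore protein 16-2 (LOC110434017, r = 0.996) had 464, 285 and 61.6 CPM in SCS drought, 0 in SCS control and JL drought, and a mean of 0.0283 ± 0.0490 CPM in JL control. The F-box gene LOC8060956 (r = 0.996) averaged 41.8 ± 35.3 CPM in SCS drought (SD, n = 3) and had 0 in the other 9 libraries. Next came dirigent protein 10 (LOC8080616, 0.989), HVA22 (LOC8080659, 0.989), a gene type first described as ABA-induced in barley, and a mitochondrial mechanosensitive channel (LOC8076032, 0.988). NADP-dependent malic enzyme (LOC8075558), cytosolic phosphoglycerate kinase (LOC110431217) and oil body-associated protein 2B (LOC8069824) each had r = 0.984. Both leading genes were highest in SCS drought library 1 and lowest in library 3, like 5 of the members.

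Within the 6 JL libraries, where the members have 30 reads or fewer, the highest r among 8415 genes belonged to a peroxygenase (LOC8085281, 0.991), galacturonosyltransferase 4 (LOC8062683, 0.986), autophagy-related protein 8C (LOC8071141, 0.956) and aldo-keto reductase 2 (LOC8069053, 0.949). None of these was among the genes named for the 12 libraries. Such r rest on very few reads of the members.

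None of the tested neighbours of the members on the chromosome passed the test as higher in SCS drought. The 14 genes that flank the 7 members lie 465 to 147241 bp away, apart from 1 that overlaps a member by 108 bp. Of the 10 that were tested, 0 rose and 3 fell in SCS drought (edgeR adjusted p below 0.05), beside 4.09% higher and 5.41% lower over all tested genes, so that 0 of 10 higher says nothing particular of the neighbours. LOC8082132, beside LOC8059830, averaged 77.5 ± 32.6 CPM in SCS drought against 20.7 ± 10.3 CPM in SCS control (SD, n = 3 each; log2 fold change 1.91, edgeR adjusted p = 0.149). LOC8061085, beside LOC110430243, had the highest log2 fold change, 4.53 (edgeR adjusted p = 0.0623), at 1.29 ± 0.379 CPM in SCS drought against 0.0518 ± 0.0575 CPM in SCS control. The nearest, LOC110430244, lies 465 bp beyond LOC110430243 and averaged 4.98 ± 2.08 CPM in SCS drought against 9.43 ± 3.61 CPM in SCS control (SD, n = 3 each), where LOC110430243 averaged 2034 and 0 CPM. LOC8059157, beside LOC110434031, fell by 1.57 on the log2 scale (edgeR adjusted p = 0.00521), and LOC8063948, beside LOC8072323, fell by 1.36 (edgeR adjusted p = 0.0277, lost without any 1 of 4 libraries). LOC8083692, beside LOC8055903, fell by 1.48 (edgeR adjusted p = 0.0483, lost without any 1 of the 6 libraries).

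The overlapping gene, LOC8082133, shares 108 bp with the end of LOC8059830 on the opposite strand and averaged 1.47 ± 0.974 CPM in SCS drought, against 0.0190 CPM in SCS control. The libraries were strand-specific per the labels, but nothing in the labels or headers says whether counting used strand. Reads of the 2 genes within the shared 108 bp therefore cannot be told apart.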

How the data were processed

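RNA-seq of 12 leaf libraries in 4 groups of 3 was used. Per the labels, libraries of TRIzol-extracted RNA were strand-specific and sequenced on a NovaSeq. The submitters' processing notes list StringTie 1.3.3b, HISAT2 2.0.4 and STAR without saying what each did. Not given in the sources used here are the counting program, its use of strand and its build. The authors deposited whole-number counts per gene, not normalised, and these were tested. The FPKM values that the authors deposited were used only for alternative fits on log2(FPKM + 1) and log2(FPKM + 0.1) with limma 3.58.1.

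Genes were filtered with edgeR (4.0.16, R 4.3.3) filterByExpr, which removed 13024 of 33897. Counts were scaled with TMM (factors 0.757 to 1.41) and fitted with 1 mean per group of 3 libraries, with the spread estimated jointly from all 12. Calls of the quasi-likelihood F test required p below 0.05 after Benjamini-Hochberg adjustment across the 20873 genes. The SE is the absolute log2 fold change divided by the square root of F. Ratios use pooled counts and exact binomial 95% intervals, and a group at 0 was set at 3 counts over the group for a lower bound. No library pair within a group agreed within counting noise (chi-square of 39.8 to 276 per gene), so none was merged.

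The members and the 10 gene lists were chosen with earlier results of these data known. Lists are matches on product names: LEA and dehydrin genes, 5 lists of ABA synthesis, receptors, SnRK2 kinases, phosphatases and bZIP or B3 factors, and markers of seeds, C4 leaf, root, and anther and pollen. False matches were removed after they were seen, 3 of them from the LEA list. Genes were named by a rule: all members, the 6 other LEA genes with the highest and the 3 with the lowest log2 fold change in SCS, the 3 most abundant genes of each ABA list, and the genes most correlated with the members. COR410, LOC8063910, oleosins, phosphoenolpyruvate carboxylase 3, SAPK3, protein phosphatases 2C 51 and 2C 8, LOC8082665, LOC8054662, the genes flanking the members and the other LEA genes called by DESeq2 were named after their values were seen. So was ABA 8'-hydroxylase 1 (LOC8073163). Of the root list, 4 genes were tested, and 0 rose and 1 fell in SCS drought. Of the anther and pollen list, 13 were tested, and 1 rose and 0 fell. Over all tested genes 4.09% rose and 5.41% fell in SCS drought. JL drought called 0 of either list by edgeR, with 0 at an unadjusted p below 0.05 and 0 by DESeq2. Casparian strip genes, which define root endodermis, reached at most 18 counts. Other genes of the root list were expressed. The whole root list summed to 47.7 to 147 CPM in SCS drought and 332 to 517 CPM in SCS control. In JL it summed to 201 to 650 CPM in drought and 590 to 780 CPM in control.

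Alternatives were RLE scaling, DESeq2 1.42.0, no filter, a stricter filter (at least 10 CPM in 3 libraries), the compared libraries alone, a replicate block, both FPKM fits, and leaving out each library. The edgeR fit of the JL and SCS contrasts was tested on simulated counts. Of the table's genes, 32940 matched the RefSeq table of Sorghum_bicolor_NCBIv3.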

Additional observations from a re-analysis of the deposited data

How the results depend on the processing

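Drought against control in JL called 0 genes, and 0 under every alternative run except DESeq2, which called 44, and the fits that left out 1 library, which called 0 to 2. In SCS 1984 genes were called, 4065 by DESeq2 and 533 to 2619 when 1 library was left out. The LEA and dehydrin genes called higher in SCS drought numbered 18, and 11 to 21 when 1 library was left out. Over the 14 alternatives, 0 to 8 genes of the seed list were called higher in SCS drought, and 1 to 10 C4 leaf markers lower. Of 52 refits of member values in JL, 51 kept their sign and stayed uncalled; the log2 fold change of LOC110434031, 1.81, was -2.18 without JL drought library 2, which holds its 4 JL drought reads, and up to 3.96 without another library. Of 196 refits of member values in the SCS comparisons, 0 changed sign and 27 moved by more than 1 SD of the libraries.

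Deviations of libraries of the same number correlated at 0.05, -0.32 and -0.37 between the SCS groups and at -0.18, 0.11 and 0.06 between the JL groups, and at 0.03, 0.38 and -0.04 between the drought groups. Not every pair exceeded 0.1 in any of these, so the numbers were not taken to pair the samples, although replicates 2 of both drought groups deviated alike. With the replicate number as a block, 1399 genes were called in SCS, 0 in JL and 17 LEA and dehydrin genes in SCS. In JL the members had so few reads that a small change could not have been seen, and with 3 libraries a group the spread within SCS drought limits any level given for a member.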

Other observations

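A gene without a LEA product name had the same domain as LOC8073244 and a like pattern; it was chosen after its values were seen. LOC8060464 carries the LEA group 1 domain PF03760 and had 1544, 103 and 347 counts in SCS drought, 0 in each SCS control library, 0, 2 and 0 in JL drought, and 0 in JL control (edgeR adjusted p = 0.0172 in SCS, up to 0.0586 without SCS control library 1 or 3). As with LOC110434031 and LOC8055903, SCS drought library 2 was the lowest of the 3.

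LOC8079633, a LEA protein with the domain PF03242 whose product name is spelled differently in the table, went another way. It had 1708, 88 and 3121 counts in SCS drought, 467, 670 and 491 in SCS control, 119, 4 and 304 in JL drought, and 325, 322 and 1171 in JL control, and did not pass the test in SCS (edgeR adjusted p = 0.423). Its lowest libraries were library 2 of both drought groups, the libraries in which 9-cis-epoxycarotenoid dioxygenase 1 (LOC8062208) was highest within its group, at 98.3 CPM in SCS drought and 217 CPM in JL drought. Lea5-D (LOC8060357) was also lowest in SCS drought library 2, at 7.19 CPM against 180 and 140 CPM in the other libraries of that group. In JL drought, however, Lea5-D was lowest in library 1, with 16.2, 26.1 and 211 CPM in libraries 1, 2 and 3.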
